A study of Mus musculus with 2 samples.

Results

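Among the ATAC-seq peaks of colonic macrophages, 2613 WT peaks were strong, lay outside protein-coding genes, and were also called in Tle4cKO cells. They are 2.03% of all 128737 WT peaks and 13.1% (95% Wilson interval 12.7 to 13.6) of the 19879 WT peaks on chromosomes 1 to 19 that had a pileup of 99 or more and overlapped a Tle4cKO peak. Pileup is the deposited height of stacked sequencing signal at a peak's summit. Each member had a WT pileup of at least 99, overlapped no RefSeq protein-coding gene (mm10), lay more than 10 kb and less than 100 kb from the nearest one, and overlapped a Tle4cKO peak by 1 bp or more. The WT pileup and the overlap therefore chose the members. The pileups below are a description of 1 library per genotype, with no replicate check. Non-coding genes were not excluded, and 822 members (31.5%) overlapped one.

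ATAC-seq marks open DNA by the insertion of adapters by the Tn5 transposase. The WT library came from Lyz2-Cre mice and the Tle4cKO library from Tle4f/f Lyz2-Cre mice, so both carried the Cre. The mice were male C57BL/6 animals aged 18.9 weeks, and the cells of 2 mice of a genotype were pooled before the libraries were made. The sorted colon cells carried CD64, little Ly6C and no Siglec-F, with both genotypes sorted on the same occasion. Lyz2-Cre recombines in macrophages, monocytes and neutrophils, and the labels do not say what share of the sorted cells had lost Tle4.

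Open sites far from genes are often enhancers, which carry binding sites for transcription factors and act on promoters over a distance, not always on the nearest gene. In macrophages, PU.1 opens many such sites together with C/EBP, AP-1, RUNX and IRF factors. TLE4 is a Groucho-type corepressor that does not bind DNA itself and is brought to its targets by factors such as HES1, RUNX and TCF proteins. Genes are used below as position labels, and no target gene was measured.

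All 14 resident intestinal macrophage markers, including Csf1r, Cx3cr1, Adgre1, C1qa and Mrc1, had a WT peak within 1000 bp of a gene end. In the Tle4cKO library 13 of the 14 did, and Cd163, with a WT pileup of 8 there, did not. Among all protein-coding genes on chromosomes 1 to 19, 68.1% had a WT peak at an end. So did all 8 B and plasma cell genes, all 9 stromal and endothelial genes, and 7 of 10 neutrophil genes. Such peaks therefore do not tell the cell type. Tle4 itself (chr19:14448072-14598183) kept a peak at its end, of 238 in WT and of 220 in the Tle4cKO list. Peaks over the Tle4 gene numbered 22 in WT and 14 in Tle4cKO, and the labels do not name the deleted exons. Median pileups of the whole lists were 28 (WT) and 20 (Tle4cKO). Neither the labels nor the headers give read totals or a scaling between the lists, so a ratio of pileups is raw, and depth and genotype cannot be told apart in it.

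Sequence could be read where the start of an annotated non-coding RNA lay in a member, since RefSeq (GRCm38.p6) start windows hold 250 bases before and 50 after a start. In all, 211 such windows lay whole inside 176 members. Matches to 7 motifs are in capitals below, on either strand: GAGGAAGT for PU.1, TGANTCA for AP-1, TTGCNNAA for C/EBP, TGTGGT for RUNX, CATGTG for the MiT/TFE family, and the longer IRF and MAF motifs. The RUNX and MiT/TFE letters can overlap. The Gm31619, Mirt1 and Dleu2 windows are shown because they are the 3 of highest WT pileup that hold the PU.1 letters. Gm31619 (chr2:167589432-167589731, minus strand) starts in a member nearest to Ube2v1 with pileups of 221 in WT and 188 in Tle4cKO. Mirt1 (chr19:53464747-53465046, minus strand) starts in a member nearest to Dusp5, a nuclear phosphatase of ERK kinases, with 197 and 150. Dleu2 (chr14:61682324-61682623, minus strand), the host RNA of the miR-15a and miR-16 cluster, starts in a member nearest to Kcnrg with 197 and 163. The WT summits lay 239 bp (Gm31619), 246 bp (Mirt1) and 1203 bp (Dleu2) from these starts. The Dleu2 letters are thus not the sequence under its summit. The PU.1 letters of Gm31619 and Mirt1 do not lie at their summits either.
Gm31619: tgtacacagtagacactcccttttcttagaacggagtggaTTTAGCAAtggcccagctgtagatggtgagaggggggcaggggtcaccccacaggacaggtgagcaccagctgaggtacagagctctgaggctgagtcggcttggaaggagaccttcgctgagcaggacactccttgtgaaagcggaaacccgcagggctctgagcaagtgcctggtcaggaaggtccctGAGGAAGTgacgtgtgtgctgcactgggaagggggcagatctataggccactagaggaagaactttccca
Mirt1: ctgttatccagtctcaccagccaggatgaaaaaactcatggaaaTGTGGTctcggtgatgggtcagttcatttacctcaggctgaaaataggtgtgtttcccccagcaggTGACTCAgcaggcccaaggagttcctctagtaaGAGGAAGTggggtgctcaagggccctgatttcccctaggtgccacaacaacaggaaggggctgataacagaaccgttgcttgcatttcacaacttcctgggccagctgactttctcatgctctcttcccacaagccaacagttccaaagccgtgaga
Dleu2: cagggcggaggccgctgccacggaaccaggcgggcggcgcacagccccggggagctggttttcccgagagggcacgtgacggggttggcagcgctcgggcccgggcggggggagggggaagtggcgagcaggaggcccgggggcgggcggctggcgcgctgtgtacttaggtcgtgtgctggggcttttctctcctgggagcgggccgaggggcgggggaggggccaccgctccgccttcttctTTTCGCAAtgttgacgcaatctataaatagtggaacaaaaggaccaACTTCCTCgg

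The windows of Gm34323, Gm38933 and Gm39608, predicted RNAs, are shown because their members are among the 6 with the lowest Tle4cKO pileup for their WT pileup. Gm34323 (chr9:120601620-120601919, plus strand, nearest gene Rpl14) had 55 in Tle4cKO, 0.44 of its WT pileup. Gm38933 (chr11:83604766-83605065, minus strand, nearest gene Ccl6) had 102 in WT and 49 in Tle4cKO. Gm39608 (chr11:20898695-20898994, minus strand, nearest gene Lgalsl) had 114 and 56. The WT summits lay 4 bp (Gm34323), 209 bp (Gm38933) and 243 bp (Gm39608) from the starts. None of the 3 windows held the PU.1 letters. In Gm39608 the RUNX match and the MiT/TFE match share letters and print as 1 run of capitals.
Gm34323: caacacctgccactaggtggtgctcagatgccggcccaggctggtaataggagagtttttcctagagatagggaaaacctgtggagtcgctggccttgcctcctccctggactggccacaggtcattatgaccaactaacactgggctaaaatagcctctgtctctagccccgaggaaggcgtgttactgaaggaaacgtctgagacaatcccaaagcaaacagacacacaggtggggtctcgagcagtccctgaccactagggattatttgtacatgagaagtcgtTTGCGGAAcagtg
Gm38933: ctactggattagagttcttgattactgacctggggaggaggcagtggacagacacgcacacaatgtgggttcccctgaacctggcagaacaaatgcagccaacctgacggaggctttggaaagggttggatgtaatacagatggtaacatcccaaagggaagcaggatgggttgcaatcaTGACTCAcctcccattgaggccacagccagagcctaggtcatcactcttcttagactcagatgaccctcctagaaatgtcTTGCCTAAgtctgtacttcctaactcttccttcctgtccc
Gm39608: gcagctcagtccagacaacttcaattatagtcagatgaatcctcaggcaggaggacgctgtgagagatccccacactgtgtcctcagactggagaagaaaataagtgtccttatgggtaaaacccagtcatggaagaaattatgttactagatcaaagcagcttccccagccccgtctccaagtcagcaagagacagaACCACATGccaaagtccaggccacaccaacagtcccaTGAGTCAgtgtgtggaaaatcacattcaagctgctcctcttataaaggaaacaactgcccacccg

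A further 3 windows are shown, 1 at the start of a known RNA, 1 for its neighbour Hes1 and 1 with no match. Ptgs2os2 (chr1:150164899-150165198, minus strand) starts in a member nearest to Ptgs2, the inducible prostaglandin synthase, with 187 in WT and 145 in Tle4cKO, and its summit lay 2 bp from the RNA's start. The non-coding RNA 4632428C04Rik (chr16:30008417-30008716, plus strand) starts in a member nearest to Hes1, with 132 and 105, and 287 bp from the summit. The non-coding RNA 1700096K18Rik (chr5:25529768-25530067, plus strand) starts in a member nearest to Cct8l1, with 234 and 220, and 242 bp from the summit. Among the windows kept for printing, it is shown as the one of highest WT pileup with no match, and its GC content of 74% was above the median of 51.3% for the members' windows.
Ptgs2os2: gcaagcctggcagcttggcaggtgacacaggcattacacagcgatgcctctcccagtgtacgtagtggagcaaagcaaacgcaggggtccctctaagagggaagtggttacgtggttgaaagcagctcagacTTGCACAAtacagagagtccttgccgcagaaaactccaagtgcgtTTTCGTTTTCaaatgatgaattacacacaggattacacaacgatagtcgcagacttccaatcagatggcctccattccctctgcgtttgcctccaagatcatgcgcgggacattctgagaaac
4632428C04Rik: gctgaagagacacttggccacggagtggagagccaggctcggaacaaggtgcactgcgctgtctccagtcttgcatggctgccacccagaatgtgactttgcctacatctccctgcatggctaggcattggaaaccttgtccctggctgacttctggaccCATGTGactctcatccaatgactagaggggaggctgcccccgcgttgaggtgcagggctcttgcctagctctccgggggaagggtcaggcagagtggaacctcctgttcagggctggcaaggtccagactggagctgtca
1700096K18Rik: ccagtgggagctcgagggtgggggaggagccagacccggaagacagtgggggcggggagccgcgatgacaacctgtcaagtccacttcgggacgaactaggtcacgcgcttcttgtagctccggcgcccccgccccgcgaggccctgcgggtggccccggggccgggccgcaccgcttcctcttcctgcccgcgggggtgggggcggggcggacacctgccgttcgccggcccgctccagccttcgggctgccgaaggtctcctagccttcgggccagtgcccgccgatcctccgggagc

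With 1 window per member, the PU.1 letters were in 18 of 176 windows, or 10.2% (6.57 to 15.6). Intergenic non-coding windows in no peak of either list held them in 3.12% (2.56 to 3.8) of 3013, and windows of protein-coding genes inside strong WT peaks in 3.35% (3 to 3.74) of 8929. Over all 31365 windows the share was 3.25%. The intervals of the members and of these sets do not overlap. Weaker intergenic peaks, with a WT pileup under 99, held the letters in 5.28% (3.32 to 8.29) of 322 windows, an interval that overlaps that of the members. In these window shares and GC contents, members means the 176 with a whole start window inside, a part of the 2613. The 187 members with a non-coding start had a median width of 1412 bp, against 1186 bp for the 1791 over no non-coding gene. The shares therefore do not describe all members.

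For AP-1 the members' interval was also above that of windows in no peak, but not that of weaker peaks. AP-1 letters were in 15.9% (11.2 to 22) of the members' windows, 16.8% of the windows in weaker peaks, 10% (9 to 11.1) of the windows in no peak and 4.43% of the protein-coding windows, against 7.85% of all windows. The C/EBP share was 12.5% in members, 12.7% in windows in no peak and 10.9% in all windows. RUNX letters were in 21% of the members' windows and 22.4% of those in no peak, against 16.7% of all. The MiT/TFE letters were rarer in members, at 14.8% (10.3 to 20.8), than in windows in no peak, at 22.4% (20.9 to 23.9), and the share over all windows was 14.1%. The IRF share was 3.98% in members and 3.45% in all windows. No member window held the MAF letters, which 0.383% of all windows did. Base composition moved with these sets: the median GC content was 51.3% in members, 47% in no peak and 62.3% in the protein-coding windows, and its part in the shares was not tested.

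**Figure D1:**
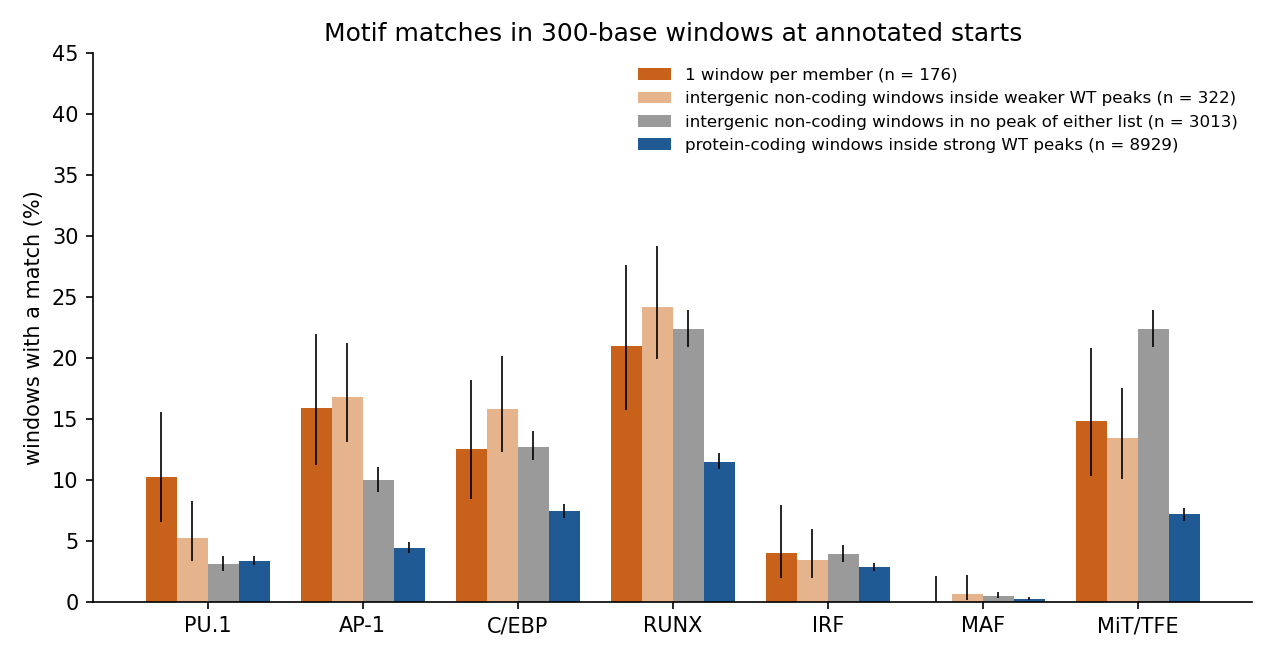
The share of 300-base start windows with a match (y axis, percent) is plotted for each motif (x axis) in 4 sets of windows, with 95% Wilson intervals that cover counting error only. The PU.1 bar of the 176 members with a start window inside stands at 10.2%, and those of windows in no peak and of protein-coding windows at 3.12% and 3.35%.

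The members ran from a WT pileup of 99 to 257, with a median of 128, and their Tle4cKO peaks from 49 to 226, with a median of 97. All 2613 of those peaks were at or above 47, the upper quartile of the Tle4cKO list. Most members paired cleanly: 2477 (94.8%) overlapped 1 Tle4cKO peak, 127 overlapped 2, 8 overlapped 3, and 1, nearest to 1600014C23Rik, overlapped 4. The summits lay within 50 bp of each other in 73.8% (72.1 to 75.5) of members and in 76.6% (75.7 to 77.5) of strong peaks at gene ends. Spearman's rho of the pileups in both libraries was 0.91 over the 2613 members, which share their libraries.

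The 10 highest WT members included sites near immune regulators. The member nearest to Fos, an AP-1 subunit (chr12:85454713-85456237), had 248 in WT and 209 in Tle4cKO. That nearest to Tnfaip3, which encodes the NF-kappaB inhibitor A20 (chr10:19061558-19063759), had 245 and 207. That nearest to Cebpb, a C/EBP factor of activated macrophages (chr2:167774727-167775965), had 242 and 209. Each of the 3 had the higher value in WT, and their ratios of 0.843 to 0.864 were near the median of 0.844 of all strong WT peaks of 200 or more.

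Near Lgals3, which encodes the macrophage lectin galectin-3 (chr14:47359523-47362786), the member had 236 and 226 and was also the second widest, at 3264 bp. That nearest to Pim1, a cytokine-induced kinase (chr17:29436768-29437707), had 233 and 190. That nearest to Incenp, with the ferritin heavy chain gene Fth1 on its other side (chr19:9938444-9939573), had 242 and 200. The remaining 4 were nearest to Zfp958 (257 and 217), Zswim4 (249 and 196), Rab2a (237 and 202) and Cct8l1 (234 and 220). The Tle4cKO value was the lower in all 10.

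The ratio of Tle4cKO to WT pileup had a median of 0.757 over members, with quartiles of 0.701 and 0.807 and a range of 0.44 to 1.04, and 3 members were higher in Tle4cKO. Library depth, fewer cells with a site open and less opening per cell cannot be told apart in these pooled libraries. Strong peaks elsewhere had median ratios of 0.801 at gene ends (8558 peaks within 1000 bp of a gene end), 0.763 inside gene bodies (6364), 0.759 outside genes within 10 kb (1736) and 0.748 at 100 kb or more (608). The ratio moved with pileup in all strong peaks, from 0.727 in the lowest class of WT pileup, 99 to below 110, to 0.844 at 200 and over. Each ratio was therefore also expressed on the log2 scale relative to the median of all strong shared WT peaks in its own class of WT pileup, of which there were 5.

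**Figure D2:**
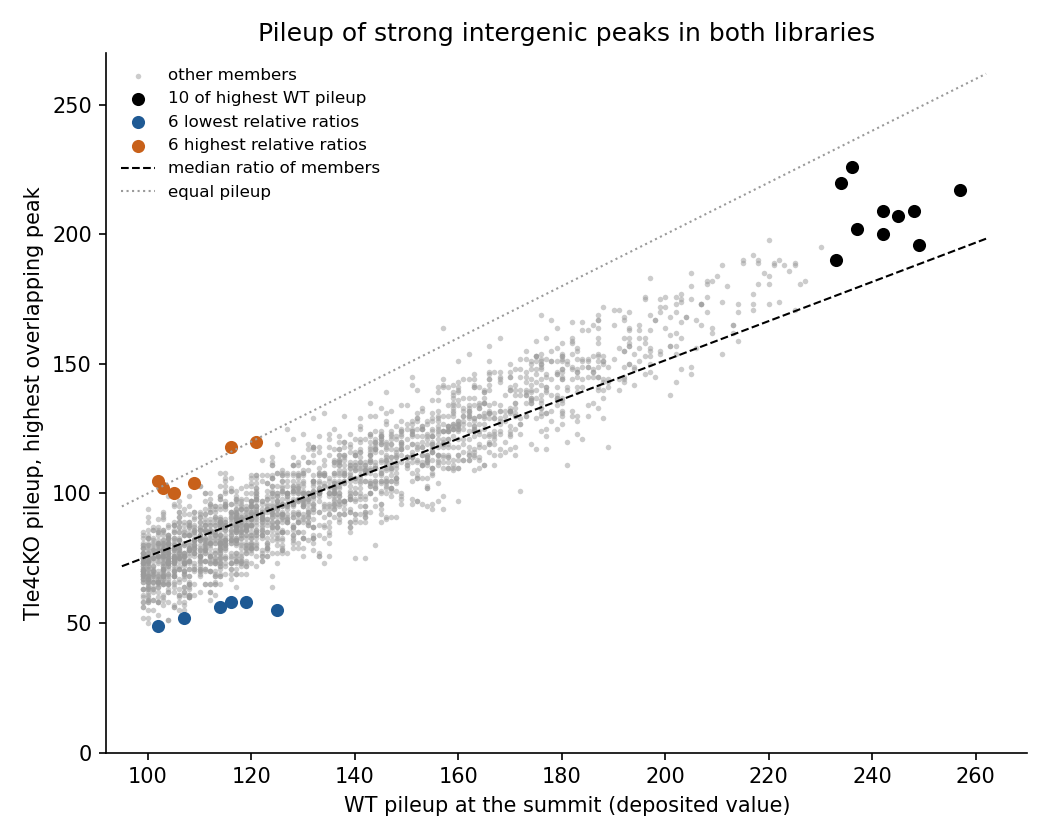
Each point is a member, with the WT pileup on the x axis and the pileup of its highest overlapping Tle4cKO peak on the y axis. The 10 highest WT members and the 6 lowest and 6 highest relative ratios are coloured, the dashed line is the median ratio of 0.757, and all but 3 points lie on or below the dotted line of equal pileup.

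On this relative scale the members had a median of -0.020 (SD over peaks 0.153), gene bodies -0.005, gene ends 0.014, peaks outside genes within 10 kb -0.016 and those at 100 kb or more -0.021. The members' median lay below 0 in each pileup class, from -0.012 in the class from 110 to -0.027 in that from 150, while that of gene ends lay above 0 in each, from 0.006 to 0.017. These offsets are small beside the spread over peaks. Members were also narrower, with a median width of 1202 bp (265 to 3639) against 1541 bp at gene ends. The width gap was present at like pileup: 1102 bp against 1332 bp in the lowest class, and 1463 bp against 1704 bp at 200 and over. Members and gene-body peaks had similar widths, 1202 and 1187 bp. The widest members were nearest to Ak4 (3639 bp), Lgals3 and Fam76a (3139 bp).

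**Figure D3:**
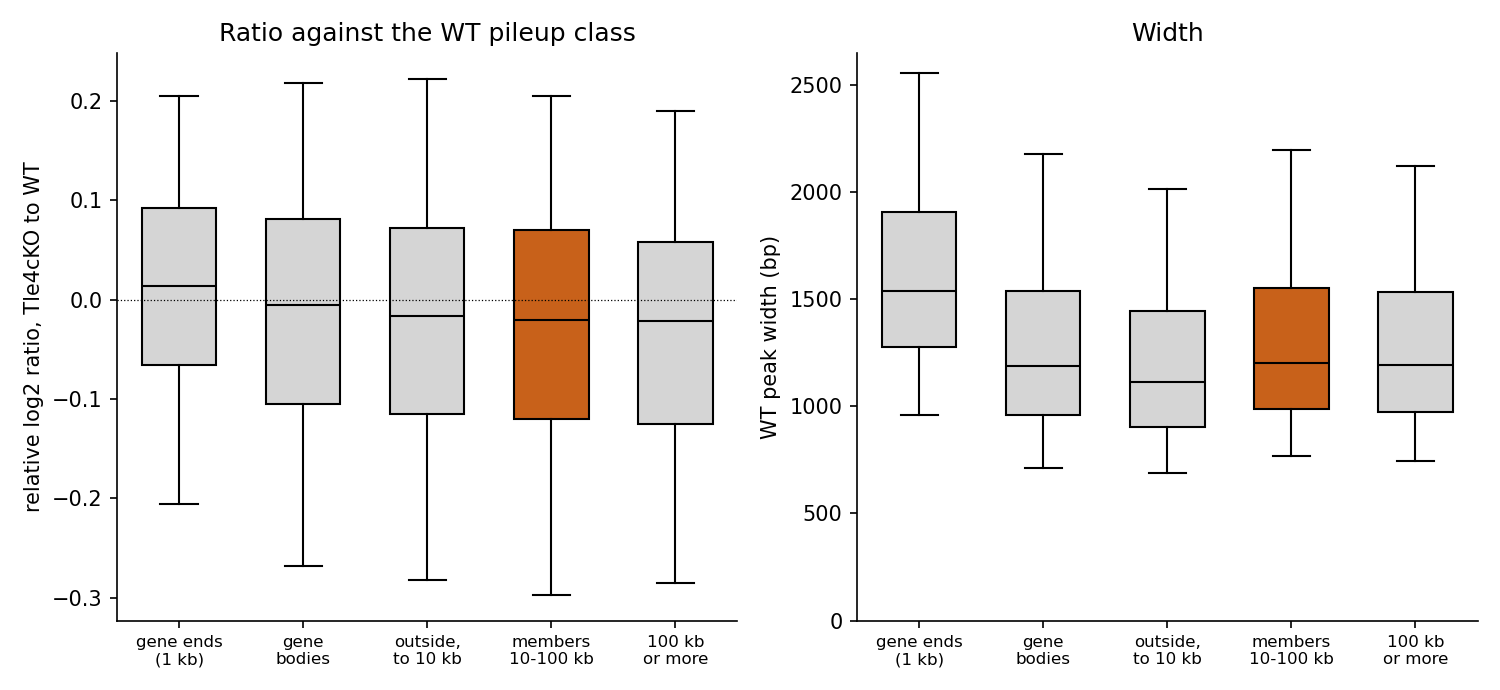
Strong shared WT peaks are grouped by position relative to protein-coding genes (x axis), with the relative log2 ratio of Tle4cKO to WT pileup on the left and the WT peak width in bp on the right. Boxes span the quartiles, lines are medians and whiskers reach the percentiles 5 and 95, and the members' box overlaps all others in both panels.

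By distance the members differed little. The nearest gene lay at a median of 27729 bp (quartiles 16593 and 47395). Median ratios were 0.757 for the 905 members at 10 to 20 kb, 0.758 for the 1113 at 20 to 50 kb and 0.754 for the 595 at 50 to 100 kb. At the thresholds, the 54 intergenic peaks of pileup 98 had a median ratio of 0.704 and the 58 of pileup 99 one of 0.717. The member just inside 10 kb was nearest to Tekt3 (10006 bp, 163 and 134), and the peak just outside to Pid1 (9994 bp, 154 and 107). The member just inside 100 kb was nearest to Unc5b (99936 bp, 188 and 137), and the peak just outside to Gm826 (100301 bp, 150 and 122). Of the strong intergenic WT peaks at these distances, 2 overlapped no Tle4cKO peak. The one nearest to Fgd2 (chr17:29398025-29398595) lay 1108 bp from a Tle4cKO peak of 72, and the one nearest to Frmd8 (chr19:5811988-5812512), of 105, lay 383 bp from one of 112.

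A relative value of at least 1.2-fold above the class median was found in 52 members (1.99%), against 2.19% of all strong shared WT peaks. A value at least 1.2-fold below was found in 191 members (7.31%), against 4.51%. The rule used the WT pileup, so these shares are given without a reading. When peaks were instead chosen by Tle4cKO pileup of equal rank (72 or more, 20101 peaks), the same position rule found 2618, of which 2354 were paired with members, or 89.9% of that set and 90.1% of the members. Their median relative value was -0.008, with 2.37% above (2.16% of all such peaks) and 2.33% below (1.81%). The lower side thus shrank from 191 to 61 peaks, while the upper side went from 52 to 62.

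In the 6 members of lowest relative value the Tle4cKO pileup was between 0.44 and 0.5 of that in WT. The member nearest to Rpl14, a ribosomal protein gene (chr9:120601356-120603306), had 55 in Tle4cKO, a ratio of 0.44 (95% exact interval 0.314 to 0.609) and a relative log2 value of -0.80. That nearest to Ccl6, a macrophage chemokine (chr11:83604538-83606027), had 102 in WT and 49 in Tle4cKO (relative -0.60). That nearest to Btnl6, a butyrophilin-like gene (chr17:34535497-34537099), had 119 and 58 (-0.61). The others were nearest to Lgalsl (114 and 56), to Nmd3, a ribosome export factor (107 and 52), and to Dusp22, a phosphatase (116 and 58). These intervals reflect counting error alone and are approximate, because the summit is where the signal peaks.

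In 29 of the 2613 members the exact interval of the ratio lay below the ratio of its class. Of all 19879 strong shared peaks, 123 (0.619%) did so. The interval lay above in 5 members, against 77 (0.387%) of all strong shared peaks. The WT pileup chose the members and enters the interval, so these counts are given without a reading. Of the 29, 4 are described here, chosen after their values were seen for the known roles of their nearest genes. The others lay near genes such as Mrpl39, Txlnb, Vstm5, Ehf, Klhl25, Disc1, Lmo4 and Ccnl1. Near Igf1, a growth factor made by macrophages, a member (chr10:87841868-87843090) had 189 and 118. That nearest to Ahr, the aryl hydrocarbon receptor (chr12:35577987-35579993), had 140 and 75. That nearest to Plau, the urokinase gene (chr14:20824472-20825595), had 144 and 80. That nearest to Rbpj, the DNA-binding factor of Notch signalling (chr5:53465621-53466969), had 64 in Tle4cKO, a ratio of 0.516. Of the 5 Rbpj members, another was also low, with a ratio of 0.622, and the other 3 had relative values from -0.01 to 0.03. The 6 Ahr members had a median relative value of -0.01.

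The 6 highest relative values were nearest to Il21 (102 and 105, relative 0.50), Gnaq (116 and 118, 0.45), Gnpda1 (103 and 102, 0.45), Hes1 (121 and 120, 0.42), Mpp7 (104 in Tle4cKO, 0.39) and S1pr1 (105 and 100, 0.39). Il21 encodes a T-cell cytokine, Gnaq a G-protein subunit, and Hes1 a repressor that recruits TLE proteins. At Il21 and Hes1 the pairing itself was uneven. The Tle4cKO peak at the Hes1 member (chr16:30023271-30024170) was 2114 bp wide, and its summit lay 1304 bp away, under a neighbouring WT member of 169 (chr16:30024347-30025417). For the Il21 member (chr3:37174395-37175395) the Tle4cKO peak was 2452 bp wide, with its summit 1670 bp away. The same was seen at 1 other member, nearest to Tmprss13 (176 and 169), and the other 2610 were reciprocal pairs. An interval above the class was also found at the member nearest to Col19a1 (chr1:24612468-24613410), with 157 in WT and 164 in Tle4cKO, which overlaps the pseudogene Gm10222. That stretch of chromosome 1 is known to resemble mitochondrial DNA, and whether reads from mitochondria add to its pileup was not tested.

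The members were nearest to 1436 distinct genes, 6.95% of the 20665 protein-coding genes on these chromosomes. Of these genes, 869 had 1 member and 271 had 3 or more, which together held 1152 members. Their own ends were mostly open: 89.8% (88.2 to 91.3) had a WT peak within 1000 bp of an end and 89.3% a Tle4cKO peak. Among 3942 genes nearest to an intergenic WT peak below the median pileup of 28 and to no member, 74% (72.6 to 75.4) had a WT peak at an end, and among all genes 68.1%. A WT end peak of 99 or more was present at 68% of the members' genes, 46.8% of those 3942 and 46.1% of all genes.

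Some gaps between genes held many members. The members lay in 1257 gaps between neighbouring protein-coding genes, and 31 gaps with 8 or more held 309 of them. The richest, with 20 members (chr8:126615507-126919853), lay between Irf2bp2, a corepressor partner of IRF2, and the mitochondrial import gene Tomm20. Its pileups ran from 102 to 217 in WT and 85 to 173 in Tle4cKO, with a median ratio of 0.798. A further 10 members lay on the other side of Irf2bp2, towards Tarbp1 (0.772). The gap between Cebpb and the phosphatase gene Ptpn1 held 16 (chr2:167714894-167907324), from 103 to 242 in WT and 68 to 209 in Tle4cKO (0.769). That between Atf3, a stress-induced AP-1 family repressor, and Nenf held 15 (chr1:191193411-191293527), from 112 to 218 and 93 to 189 (0.846). That between Haao and Zfp36l2, an mRNA decay factor, also held 15 (chr17:83861344-84153677), from 99 to 187 and 69 to 167 (0.765).

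Of the other gaps with 8 or more members, 5 are described here, chosen after their values were seen. The gap between Cd44, a hyaluronan receptor, and Pdhx held 10 members with a median ratio of 0.78. The 8 between Ccr1, a chemokine receptor, and Xcr1 ran from 105 to 225 in WT and 77 to 188 in Tle4cKO (0.805). The 8 between Ptafr, the platelet-activating factor receptor, and Eya3 ran from 110 to 212 and 84 to 180 (0.792). The 8 between Prdm1, the repressor BLIMP1, and Prep had a median ratio of 0.677 and a median relative value of -0.16, the lowest among the 31 gaps, though none of the 8 was 1.2-fold below its class. The highest median, 0.11, was that of the 10 members between Ier5, an immediate early gene, and Cacna1e.

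By nearest gene, Cebpb had 13 members, spread from 24462 to 86657 bp from it, and all of them were lower in Tle4cKO. Its strongest had 242 and 209, the next 226 and 181, and the lowest in Tle4cKO 121 and 76, a range of ratios from 0.628 to 0.879. A peak at the end of Cebpb had 200 in WT and 182 in Tle4cKO. Both pileups were within the range of the distal members, but the end peak's ratio of 0.91 was above those of all 13. Klf6, a zinc-finger factor of inflammatory macrophages, had 10 members, from 100 to 180 in WT and 79 to 153 in Tle4cKO, with 8 of 10 above their class median. Runx3, a RUNX factor, had 9, from 106 to 220 and 70 to 198, with 7 of 9 above. Cebpb had 5 of 13 above, and Tomm20, with the most members, 5 of 15. The class median divides all strong shared peaks about evenly, and neighbouring members from 1 library are not replicates, so these counts are descriptions. Tnfaip3 had 7, from 100 to 245 in WT and 60 to 207 in Tle4cKO, with relative values from -0.34 to 0.37, so that members of 1 gene lay on both sides of their class.

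Among the 46 genes with 6 or more members, median relative values ran from -0.15 at Irs2 to 0.11 at Ier5. At 4 genes every member was below its class median: Irs2, an insulin receptor substrate, Trib1, a pseudokinase that acts on C/EBP factors, Cd47, the signal against phagocytosis, and Basp1. Over all 2613 members the median was -0.020, so more members lay below their class median than above it. The WT pileup chose them, so the 4 genes are given without a reading. The 6 Irs2 members ran from 114 to 181 in WT and 65 to 140 in Tle4cKO, while the peak at the gene's end had 198 and 168, a ratio of 0.848. The 6 Cd47 members reached 211 in WT and 174 in Tle4cKO, and the lowest Tle4cKO value of 79 was above the gene-end peak, which had 90 in WT and 63 in Tle4cKO. At none of the 46 was every member above. A gene-end WT peak of 99 or more was present at 39 of the 46, and 3, Tmco5, Glrp1 and Gm46353, had no peak at an end in either list.

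**Figure D4:**
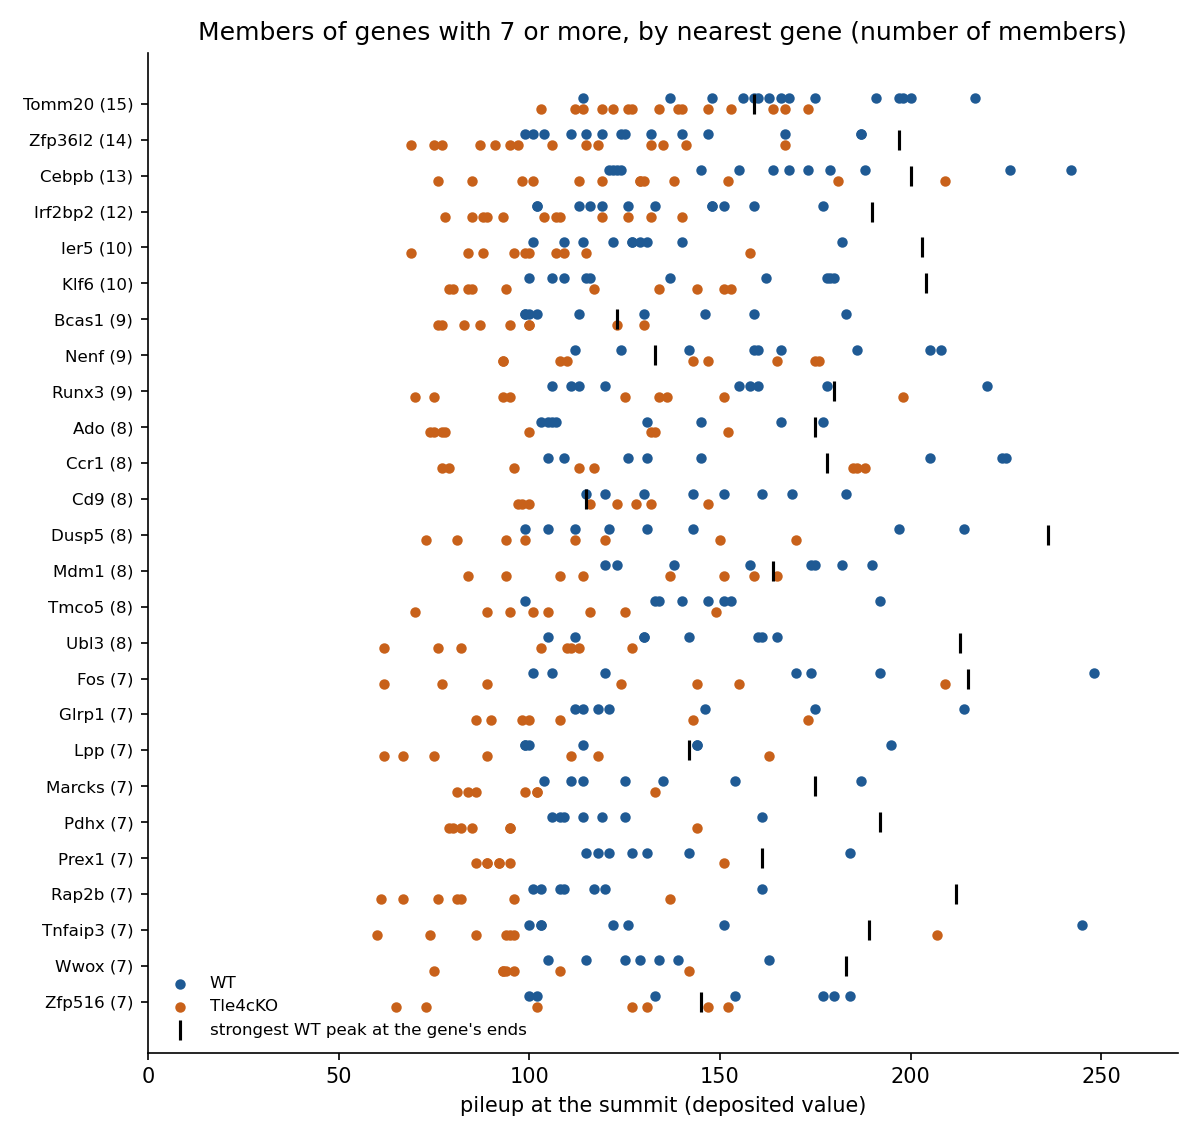
Each row is 1 of the 26 genes nearest to 7 or more members (227 members), with the pileup at the summit on the x axis; blue points are WT values of members, orange points the Tle4cKO values, and the black bar is the strongest WT peak at the gene's ends. In each row the Tle4cKO points lie to the left of their WT partners, and distal members of Cebpb, Fos and Tnfaip3 exceed the gene-end bar.

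Of 39 macrophage transcription factors, 21 (53.8%) were nearest to at least 1 member, against 6.95% of all protein-coding genes, and their 75 members had a median ratio of 0.789 and a median relative value of 0.021, with none 1.2-fold above or below. The gene lists were chosen with earlier results of these data known. Only genes with more than 10 kb of gene-free DNA beside them can have a member, which was not adjusted for. The contrast with all genes is therefore a description, here and for the lists below. Of all strong shared peaks 2.19% were above and 4.51% below, shares that apply to each list that follows. Beside Cebpb, Klf6, Runx3 and Runx1 the 21 factors include Bhlhe40, a helix-loop-helix repressor, whose 5 members ran from 117 to 147 in WT and 86 to 120 in Tle4cKO. Irf8, a lineage factor of macrophages, had 4, from 104 to 187 and 69 to 140. Bach1, a repressor of haem genes, had 3, from 126 to 168 and 105 to 145, all above their class median. Maf, a factor of resident macrophages, had 3, from 99 to 143 and 70 to 103, all below it. With 3 members each, these positions are descriptions only.

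AP-1 and NF-kappaB genes gave 10 of 20 with 32 members, a median ratio of 0.773 and a relative median of 0.00, with 2 members 1.2-fold above and 2 below. Those above were nearest to Fosb (115 and 103) and Tnfaip3 (100 and 94), and both of those below to Tnfaip3 (151 and 96, 103 and 60). Fos had 7 members, from 101 and 62 to 248 and 209. Atf3 had 6, from 128 to 218 in WT and 97 to 189 in Tle4cKO, and its gene-end peak had 218 and 196. Single members lay nearest to Jun (183 and 148), Rel (136 and 103) and Nfkb1 (115 and 87).

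Receptor and signalling genes gave 16 of 30 with 36 members (median ratio 0.789), of which 2 were 1.2-fold below. Among these was a member nearest to Rgs1, a regulator of G-protein signalling (108 and 63). Ccr1 had 8 members, the strongest with 225 and 188. Socs3, the feedback inhibitor of cytokine signalling, had 4, from 118 to 197 and 76 to 155. Near Il10ra, the IL-10 receptor chain, a member had 102 and 84, and that nearest to Il10rb, its partner chain, 157 and 141.

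Cytokine and chemokine genes gave 10 of 30 with 20 members, a median ratio of 0.735 and a median relative value of -0.075. A member nearest to Il1rn, the interleukin-1 receptor antagonist (chr2:24317811-24318718), had 102 and 53 and was the 1 of the 20 past 1.2-fold below, a share near the 4.51% of all strong shared peaks, with none above. Both members nearest to Il12a, a subunit of interleukin-12, were below their class median, with 119 and 74 and with 107 and 68. Il1b had 201 and 161 and, at another member, 103 and 68. Ccl2, the monocyte chemokine, had 5 members, which reached 167 in WT and ran from 97 to 134 in Tle4cKO. The member nearest to Il10, the anti-inflammatory cytokine (chr1:131037807-131038726), had 136 and 112, a relative value of 0.10.

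Genes of phagocytosis, lysosomes and lipid handling gave 7 of 26 with 14 members (median ratio 0.772), with 2 past 1.2-fold above, nearest to the protease gene Ctsd (105 and 96) and the integrin gene Itgav (122 and 113). The cholesterol exporter Abca1 had 4 members, from 115 to 142 in WT and with ratios from 0.652 to 0.799. Among TLE corepressors and their partners, 4 of 19 were nearest to 16 members (median ratio 0.784): Tle3 and Rbpj to 5 each, Hes1 to 4 and Tcf7l2 to 2. The unevenly paired Hes1 member was the 1 past 1.2-fold above. The Tle3 members ran from 100 to 202 in WT and 74 to 176 in Tle4cKO. The Rbpj members ran from 122 to 207 and 64 to 173, and 2 of them, with ratios of 0.516 and 0.622, were 1.2-fold below their class. No member was nearest to Tle4. The 15 members on chromosome 19 within 3 Mb of Tle4 were nearest to Osbp, Pfpl, Cep78, Gnaq, Prune2 and Gcnt1, with relative values from -0.41 (Gcnt1) to 0.45 (Gnaq).

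Lists for other cell types were read beside the 6.95% of all protein-coding genes that were nearest to a member. The sort on Siglec-F would remove eosinophils. Neutrophil, B-cell and T, NK or innate lymphoid genes gave 0 of 10, 0 of 8 and 0 of 10. Eosinophil genes gave 2 of 5 (40%), Siglecf (106 and 77) and Ccr3 (103 and 78), and monocyte genes 2 of 8 (25%), Ccr2 (103 and 76) and Plac8 (105 and 83). Ccr1, Ccr3 and Ccr2 lie in 1 gene cluster, so a nearest gene there is a weak label. Resident macrophage genes gave 2 of 14 (14.3%), with 2 members each at Adgre1 (126 and 93, 130 and 101) and Cd81 (130 and 95, 108 and 87). Epithelial genes gave 1 of 8, Epcam (112 and 80), and stromal and endothelial genes 1 of 9, Acta2 (120 and 81). Dendritic cell genes gave 1 of 6, the chemokine receptor gene Ccr7, with 99 and 58 and with 113 and 94. Interferon and antigen presentation genes gave 1 of 20, Cd74 (120 and 88).

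Many members touched non-coding genes. In all 822 (31.5%, 29.7 to 33.3) overlapped one, against 24.7% (24.1 to 25.4) of 15437 shared intergenic WT peaks under 99. The start of a non-coding gene lay in 187 members (7.16%, 6.23 to 8.21), against 2.16% (1.94 to 2.4) of the weaker peaks, and members are wider than weak peaks, which was not adjusted for. Members with such a start had a median ratio of 0.775 and width of 1412 bp, and the 1791 without a non-coding gene 0.752 and 1186 bp. Among known RNAs, the member at the start of Malat1, an abundant nuclear RNA, had 155 and 131. That at Chaserr, which lies next to Chd2, had 218 and 190. Those at the small-nucleolar-RNA hosts Snhg5 and Snhg17 had 181 and 141, and 110 and 75. The member at Dancr had 188 and 151, and that at Zmiz1os1, near the coactivator gene Zmiz1, 184 and 121.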

How the data were processed

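The authors deposited 1 peak list per library, with position, width, summit and pileup, a whole-number signal of at least 7, per the file headers and values. For the build mm10, tools named without roles in the submitters' processing notes are MACS2 2.1.1, HOMER 4.7.2, edgeR 3.28.1, Bowtie2 2.2.5, cutadapt 1.14 and featureCounts 1.5.0. The sources used here give no calling threshold, read shift for the transposase or treatment of duplicates. Coordinates count from 1.

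Each member was set beside its highest overlapping Tle4cKO peak. Distances run between facing edges of a peak and a gene of the RefSeq table, whose assembly GRCm38.p6 underlies mm10. The 5 classes of WT pileup were 99 to 109, 110 to 124, 125 to 149, 150 to 199, and 200 and over. Shares have 95% Wilson intervals and ratios exact Clopper-Pearson intervals, for counting error only. With 1 library per genotype no p-value, SD or SE between genotypes was computed. Members, gene lists and rules were chosen with earlier results of these data known. Named members are the 10 of highest WT pileup, the 6 highest and 6 lowest relative values, genes nearest to 3 or more members or on the lists, the 3 widest, and those at the thresholds. Others, among them those whose interval missed the class ratio and those at known RNA starts, were chosen after their values were seen. Not every member covered by this rule is reported here. The planned motif search in summit windows was replaced by RefSeq start windows, since no genome sequence was used. Work was done in Python 3.11.15 with pandas 2.3.3 and scipy 1.17.1, and counts were checked with bedtools 2.31.1. The member rule, the pairing and the relative values were tested on simulated data. The WT pileups were held fixed there, so the choice by WT pileup was not simulated.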

Additional observations from a re-analysis of the deposited data

How the results depend on the processing

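No paired analysis was possible because each genotype had 1 library, and leaving out a replicate was not possible for the same reason. The members' median relative log2 value was below 0 under every alternative run, from -0.032 to -0.008. A WT pileup minimum of 67 gave 4983 members, a median ratio of 0.732, and 243 members 1.2-fold above and 536 below, and a minimum of 150 gave 741, 0.791, 1 and 26. A lower distance of 20 kb gave 1708 members, 33 of them above. Counting all genes of the table, non-coding ones included, left 1336 members with a median ratio of 0.748, a relative median of -0.032, and 20 above and 118 below. Choosing by Tle4cKO pileup of equal rank, added after seeing the data, gave a ratio of 0.771, a relative median of -0.008 and 61 below. Also added afterwards, members over no non-coding gene had a relative median of -0.028 and 34 above, and those with summits within 100 bp had 33 above. An upper distance of 50 kb, an overlap of at least 50% of the shorter peak, reciprocal pairs, and 50 bins of summed pileup moved no count by more than 1.5 times. The cause of these shifts was not tested. Pileups set the precision: at the member nearest to Ccl6, with 102 and 49, the exact interval of the ratio ran from 0.334 to 0.682.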

Other observations

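Transfer RNA genes lay under 21 members (0.804%, 95% Wilson interval 0.526 to 1.23). The share was 0.104% (0.0638 to 0.168) in the weaker shared intergenic WT peaks, and peak width was not adjusted for. The 21 members covered 41 of the 391 tRNA genes on chromosomes 1 to 19. They were wide, with a median of 1741 bp against 1202 bp for all members, and their median Tle4cKO to WT ratio was 0.78. The strongest, nearest to Trim55 (chr3:19627760-19629343), overlapped 4 tRNA genes and had 188 in WT and 172 in Tle4cKO. The member nearest to Hjv (chr3:96499532-96502251) also overlapped 4 tRNA genes, with 134 and 111. The widest of them, nearest to the histone gene H4c8 (chr13:23516943-23519944), overlapped 5 and had 114 and 77.

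A miRNA gene lay under 5 members, Mir193a, Mir7688, Mir6367, Mir713 and Mir8096. The Mir193a member, nearest to Rab11fip4 (chr11:79710604-79712184), had 156 in WT and 112 in Tle4cKO. It is shown because miR-193a is a well-known miRNA, and its mature arms are given from RefSeq with the seed, bases 2 to 8, in capitals.
mmu-miR-193a-5p: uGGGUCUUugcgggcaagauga
mmu-miR-193a-3p: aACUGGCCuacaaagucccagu

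When chosen by Tle4cKO pileup, 2 intergenic Tle4cKO peaks overlapped no WT peak. The one nearest to Kcnrg (chr14:61678003-61678232), of 79 and 230 bp wide, lay 1607 bp from a WT peak of 44. The one nearest to Ccr1 (chr9:123938229-123938474), of 74 and 246 bp wide, lay 197 bp from a WT peak of 145.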
